A study of Mus musculus with 2 samples.

Results

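MHC class I antigen processing was followed in the immune cells of mouse tumours through 10 genes: H2-K1, H2-D1, B2m, H2-T23, Tap1, Tap2, Tapbp, Psmb8, Psmb9 and Nlrc5. They were chosen by gene symbol, each symbol matched 1 row, and they are 10 of the 47730 features counted. The cells were live CD45+ cells sorted from dissociated tumours of C57BL6\J mice, CD45 being the common marker of white blood cells. All mice had been ovariectomised, which removes the main source of estrogen. One group then received placebo and the other E2, the usual abbreviation of the estrogen estradiol, and each group was 1 library of single-cell RNA made with a 3′ droplet kit. What tumour it was, how much E2 was given, for how long, and how many mice made up a library were not stated in the labels.

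MHC class I molecules carry peptides from inside a cell to its surface, where CD8 T cells read them. Proteasomes cut proteins into peptides, and in immune cells the inducible subunits encoded by Psmb8 and Psmb9 can replace the constitutive ones to form the immunoproteasome. The transporter of Tap1 and Tap2 moves peptides into the endoplasmic reticulum, tapasin (Tapbp) holds empty class I molecules at the transporter, and a heavy chain (H2-K1 or H2-D1) leaves for the surface once it has bound peptide and the light chain β2-microglobulin (B2m). H2-T23 encodes the nonclassical heavy chain Qa-1, a ligand of the NKG2A receptor of NK cells, and Nlrc5 encodes the transactivator of class I genes. Interferons are known to induce all of these genes.

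Of the genes, 8 lie on chromosome 17, in or beside the mouse MHC. In the GENCODE M21 annotation of GRCm38, Tapbp spans chr17:33915899-33929292, H2-K1 chr17:33996017-34000347, H2-D1 chr17:35262730-35267499 and H2-T23 chr17:36029773-36032855. Psmb9 (chr17:34181987-34187764), Tap1 (chr17:34187553-34197225), Psmb8 (chr17:34197721-34201454) and Tap2 (chr17:34203527-34216321) stand next to each other, and Psmb9 and Tap1 overlap at their starts on opposite strands. B2m lies on chromosome 2 at 122147686 to 122153083, and Nlrc5 on chromosome 8 at 94434356 to 94527272. Exons of other genes overlap Tap1, Tap2, Tapbp, Psmb8, Psmb9 and Nlrc5, but no such exon falls in the last 500 bases of a member's transcript, where a 3′ kit reads. Of the 50-base words in those last 500 bases, 38.1% of the words of H2-T23 and 9.53% of those of H2-D1 also occur in other genes. The counts of these 2 genes are therefore less certain than those of H2-K1, where the share is 0.443%, and of the other 7 genes, where it is 0.

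The promoters of the heavy and light chains carry short blocks known to bind NF-κB, interferon regulatory factors and the complex through which Nlrc5 acts, and they are shown because the levels of these genes are set beside those of Nlrc5 in the results. The RefSeq promoter table (GRCm38.p6, 250 bases before to 50 after a start) held 8 of the 10 genes. The windows of H2-K1 (chr17:34000348-34000527, minus strand, 180 bases) and B2m (chr2:122147507-122147685, plus strand, 179 bases) are trimmed to the part outside annotated exons. Capitals mark the κB motif (the first 11 capitals of the H2-K1 window), the interferon motif AANNGAAA on either strand, the CRE-like motif TGACG, and ATTGG, the reverse strand of the box called CCAAT.
H2-K1 promoter: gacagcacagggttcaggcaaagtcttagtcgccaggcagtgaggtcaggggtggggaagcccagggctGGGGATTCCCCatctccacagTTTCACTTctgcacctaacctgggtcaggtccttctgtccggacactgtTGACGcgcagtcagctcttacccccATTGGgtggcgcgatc
B2m promoter: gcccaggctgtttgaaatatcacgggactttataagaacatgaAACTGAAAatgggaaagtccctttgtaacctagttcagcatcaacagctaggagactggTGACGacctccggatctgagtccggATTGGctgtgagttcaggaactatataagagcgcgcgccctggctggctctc
H2-D1 κB and interferon block: GGGGATTCCCCatctcctcagTTTCACTT
H2-D1 CRE-like and CCAAT block: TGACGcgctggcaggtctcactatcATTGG

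The H2-D1 blocks lie on the plus strand at chr17:35262923-35262951 and chr17:35262993-35263022. Both are inside the GENCODE span of H2-D1 given above, since the RefSeq start used for the promoter lies further downstream. In H2-K1 the same blocks lie at chr17:34000430-34000458 and chr17:34000359-34000388, and the single B2m block at chr2:122147609-122147638. The κB and interferon blocks of H2-K1 and H2-D1 differed at 1 of 29 bases. The κB motif followed after 10 bases by TTTCACTT occurred in 0.0122% of 32851 promoter entries, and its 3 genes were H2-D1, H2-K1 and H2-Q6. In H2-K1, H2-D1 and B2m, TGACG and ATTGG stood exactly 20 bases apart. These 30-base blocks shared 23 bases between H2-K1 and H2-D1, 13 between H2-K1 and B2m and 12 between H2-D1 and B2m. That spacing occurred in 0.0913% of all entries, from 26 genes that also include the class I gene H2-M3. Of the single motifs, searched on both strands, TGACG occurred in 17.8% of entries, CCAAT in 33.8% and AANNGAAA in 21.3%, so these are common. The κB motif alone is rare, at 0.0304%. Among the other genes, H2-T23 held CCAAT and AANNGAAA, Tap1 and Psmb9 held TGACG and CCAAT, Tapbp held CCAAT, and Psmb8 held none of these letters. The motifs and blocks were chosen with these sequences in view, and a match is a description of the letters only.

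The placebo library held 3505 barcodes and 24545595 unique molecular identifiers (UMIs, 1 per captured RNA molecule), and the E2 library 5791 barcodes and 52628133 UMIs. After filtering, 3393 and 5499 barcodes were kept, with medians of 5090 and 7888 UMIs. Cells were named by marker genes, as X-like, and 10.9% of placebo and 8.20% of E2 cells could not be named. Of the named cells, 92.2% fell in a cluster of the same name. A UMI of Ptprc, the gene of CD45, was seen in 87.6% and 89.3% of cells. The libraries shared 95 barcodes, of which 61 belonged to named cells and 36 had at least 10-fold different depths. Of the classes compared below, leaving the shared barcodes out changed a call in cDC2-like cells alone, where Nlrc5 was no longer past 1.5-fold. With 1 library per group there is no measure of the spread between mice, so no test was possible, and all intervals cover counting error only.

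Levels are in CPM, the UMIs of a gene in a cell class for every 1000000 UMIs of that class, given first for placebo and then for E2. The 9 classes compared had at least 50 cells in each library. The classical heavy chain H2-K1 was highest in T-like cells, at 3162 and 2819 CPM. CCR7+ mature dendritic cells (DC-like, which carry antigen to lymph nodes) followed at 2459 and 2581 CPM, and NK-like cells at 2508 and 2198 CPM. B-like cells had 1101 and 1528 CPM, monocyte/macrophage-like cells 988 and 1099 CPM, and mast-like cells the least, 700.2 and 529 CPM. T-like cells stood above CCR7+ DC-like cells beyond the counting intervals in both libraries, while the order of CCR7+ DC-like and NK-like cells was not the same in both. The highest class was 4.52-fold above the lowest in placebo and 5.32-fold in E2.

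H2-D1, the other classical heavy chain of this strain, had a different order. CCR7+ DC-like cells had 2249 and 3027 CPM, T-like cells 2450 and 2630 CPM and neutrophil-like cells 2193 and 2820 CPM, so neutrophil-like cells ranked 3 of 9 for H2-D1 and 8 of 9 for H2-K1 (941 and 612 CPM). Mast-like cells were again lowest, at 709 and 618 CPM. The share of H2-D1 in the summed UMIs of both heavy chains shows this without reference to other genes. It was 43.7% and 48.3% in T-like cells, 60.5% and 64.8% in monocyte/macrophage-like cells and 70.0% and 82.2% in neutrophil-like cells. The neutrophil-like intervals were 67.9 to 72.0% and 81.2 to 83.1%. This share compares classes; it is not a ratio of protein or of capture between the genes.

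B2m was highest in CCR7+ DC-like cells, at 2902 and 3293 CPM, followed by T-like cells at 2407 and 2011 CPM and NK-like cells at 1999 and 1929 CPM. The cDC1-like class (conventional dendritic cells known for presenting to CD8 T cells) was lowest in both libraries, with 810 and 858 CPM. The cDC2-like class (known for presenting to CD4 T cells) had 891 and 948 CPM and mast-like cells 1117 and 924 CPM, so their order differed between the libraries. H2-T23 varied least, 2.32-fold in placebo and 2.30-fold in E2, from 174 and 185 CPM in neutrophil-like cells to 403 and 426 CPM in CCR7+ DC-like cells. From B-like cells, in place 3, to the last class, no neighbours in its order were separated by the intervals.

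The transporter genes were highest in cDC1-like, CCR7+ DC-like and T-like cells. Tap1 had 324 and 237 CPM in cDC1-like cells, 288 and 251 CPM in CCR7+ DC-like cells and 216 and 169 CPM in T-like cells, and these 3 classes stood above all others. Neutrophil-like cells had 49.9 and 48.4 CPM and mast-like cells 37.1 and 24.8 CPM. Tap2 was flatter, with 214 and 177 CPM in cDC1-like, 194 and 188 CPM in T-like and 204 and 137 CPM in CCR7+ DC-like cells, and 63.1 and 52.7 CPM in monocyte/macrophage-like cells. Tapbp was highest in CCR7+ DC-like cells, at 374 and 370 CPM, separated in both libraries from the next class, and lowest in mast-like cells, at 118 and 75.6 CPM.

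The immunoproteasome genes had a steeper order. Psmb8 had 1169 and 1286 CPM in CCR7+ DC-like cells and 999.5 and 1130 CPM in cDC1-like cells. It had 594 and 625 CPM in cDC2-like, 503 and 609 CPM in T-like and 347 and 392 CPM in monocyte/macrophage-like cells, and 88.5 and 111 CPM in neutrophil-like cells. Psmb9 was highest in cDC1-like cells, at 638 and 653 CPM, with CCR7+ DC-like cells at 484 and 478 CPM. All other classes were at or below 199 CPM in placebo, and mast-like cells had 28.4 and 36.7 CPM. Its range was 22.5-fold in placebo and 17.8-fold in E2. So cDC1-like cells were first for Psmb9 and last for B2m in both libraries. For Tap1 and Tap2 they were first in placebo only, since in E2 CCR7+ DC-like cells had more Tap1 and T-like cells more Tap2, with overlapping intervals.

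**Figure D1:**
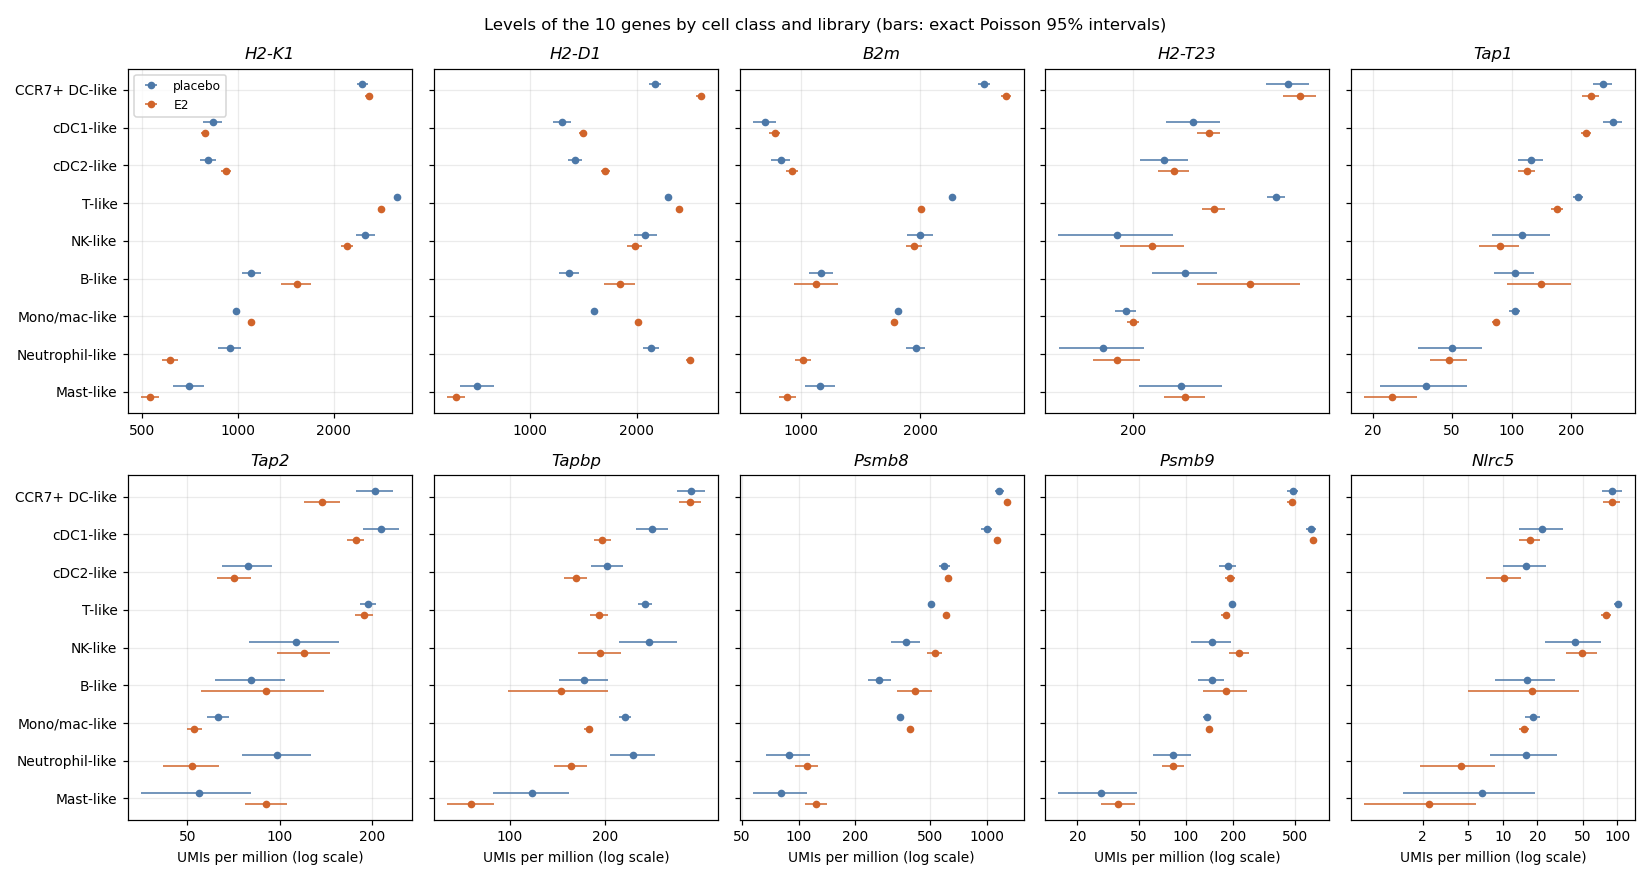
CPM (log axis, its range differing between panels) of the 10 genes in 9 cell classes, placebo in blue and E2 in orange, with exact Poisson 95% intervals. CCR7+ DC-like and T-like cells lie to the right for H2-K1, B2m and Nlrc5, cDC1-like cells for Tap1 and Psmb9, and mast-like cells are at or near the left in most panels.

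The share of an inducible subunit in the sum with the constitutive subunit it replaces gives a measure within each class. Psmb8 made up 87.4% and 88.6% of Psmb8 plus Psmb5 UMIs in CCR7+ DC-like cells, 82.8% and 84.4% in cDC1-like cells and 76.1% and 75.1% in T-like cells. It was 65.0% and 65.2% in monocyte/macrophage-like cells. In neutrophil-like cells it was 43.7% (34.8 to 52.8%) and 62.6% (57.1 to 67.8%), and in mast-like cells 47.4% (36.0 to 59.1%) and 64.2% (58.9 to 69.3%). The intervals of the libraries did not overlap in neutrophil-like cells and just overlapped in mast-like cells. In neutrophil-like cells Psmb5 itself was lower in E2, with 114 and 66.3 CPM, beside the Psmb8 values of 88.5 and 111 CPM.

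Psmb9 made up 72.9% and 74.5% of Psmb9 plus Psmb6 UMIs in cDC1-like cells and 71.9% and 71.6% in CCR7+ DC-like cells. It was 39.9% and 38.2% in monocyte/macrophage-like cells and 24.1% and 23.6% in mast-like cells. In neutrophil-like cells it was 69.9% (58.0 to 80.1%) and 62.3% (55.9 to 68.4%), on 73 and 244 summed UMIs. So their Psmb9 share was high in both libraries and, unlike their Psmb8 share, was not higher in E2. Psmb10, another inducible subunit, made up 23.8% (12.1 to 39.5%) and 28.6% (20.9 to 37.3%) of Psmb10 plus Psmb7 UMIs in neutrophil-like cells. That share, on 42 and 126 summed UMIs, was not high. The Psmb9 share of T-like cells was 57.5% (55.3 to 59.7%) in placebo and 49.6% (47.3 to 52.0%) in E2. Both genes of that share differed, Psmb9 with 199 and 180 CPM and Psmb6 with 147 and 183 CPM. Fibroblast-like cells, which the CD45 sort should have removed, gave a contrast in the E2 library with 56 cells: Psmb8 was 18.2% (12.9 to 24.5%) and Psmb9 6.22% (3.25 to 10.6%).

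**Figure D2:**
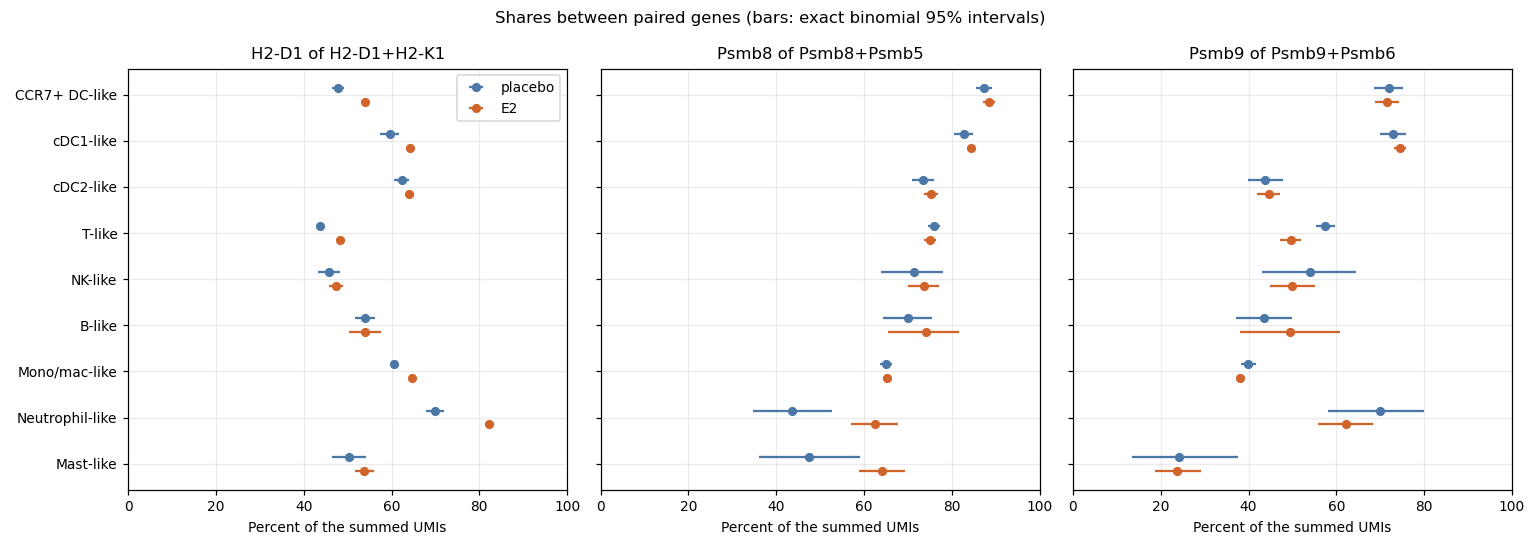
Share of H2-D1 in H2-D1 plus H2-K1 UMIs, of Psmb8 in Psmb8 plus Psmb5 and of Psmb9 in Psmb9 plus Psmb6 (percent, with exact binomial 95% intervals) in 9 cell classes, placebo in blue and E2 in orange. Neutrophil-like cells have the highest H2-D1 share, 70.0% and 82.2%, and CCR7+ DC-like cells the highest Psmb8 share, 87.4% and 88.6%.

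Nlrc5, the transactivator, was highest in T-like cells (101 and 79.0 CPM) and CCR7+ DC-like cells (90.1 and 89.0 CPM), with NK-like cells at 42.7 and 48.9 CPM. The other 6 classes were lower, among them monocyte/macrophage-like cells at 18.2 and 15.4 CPM, and lowest were mast-like cells at 6.54 and 2.26 CPM. In neutrophil-like cells it had 10 and 8 UMIs in all, and in mast-like cells 3 and 4 UMIs. After thinning each cell to 2000 UMIs, 18.8% of placebo and 15.6% of E2 T-like cells had an Nlrc5 UMI, against 39.0% and 30.7% without thinning. The thinned share was 20.9% and 13.2% in CCR7+ DC-like cells and 3.88% and 2.94% in monocyte/macrophage-like cells. In basophil-like cells of the placebo library, 0 of 95 thinned cells had one. With 3 cells in 95 taken as the limit, an approximation and not the exact interval, this allows a share of up to 3.16%. That class had a median of 4198 UMIs and the placebo T-like class 4565, so the T-like share was above this level at like depth.

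Across the 9 classes compared, the gene closest to Nlrc5 was H2-K1. For it, Pearson's r of the log levels was 0.94 in placebo and 0.96 in E2, with Spearman's rho of 0.87 and 0.93. B2m had r of 0.74 and 0.87, and in placebo H2-D1 (0.78), Tap2 (0.78) and Tapbp (0.77) had higher values than B2m. For H2-T23 r was 0.69 and 0.57, and for Psmb9 0.57 and 0.61. These values depend on the classes taken. With the other classes of at least 50 cells added, ILC2-like and basophil-like in placebo and plasmacytoid DC-like and fibroblast-like in E2, r was 0.85 and 0.92 for H2-K1, 0.83 and 0.89 for B2m and 0.19 and 0.53 for H2-T23. In that larger placebo set rho was 0.82 for B2m, 0.74 for Tap1 and 0.73 for Tap2, all above the 0.72 of H2-K1. Over the 9 classes, Tap1 and Psmb9, which start next to each other, had r of 0.96 and 0.93, and Psmb8 and Psmb9 0.94 and 0.93. All points of a library share its depth and free RNA, so these are descriptions. Over the 22 class-by-library points of the larger set and outside the pathway, Myo1g (an unconventional myosin of blood cells) was most like the mean of the 10 genes, with r of 0.87. Spint2, Gpr132, Epsti1 (an interferon-induced gene) and St8sia4 followed at 0.84, 0.84, 0.83 and 0.83. Gbp8, Tnfrsf9 (the costimulatory receptor 4-1BB) and Aebp2 were most like Nlrc5, each with r of 0.87.

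**Figure D3:**
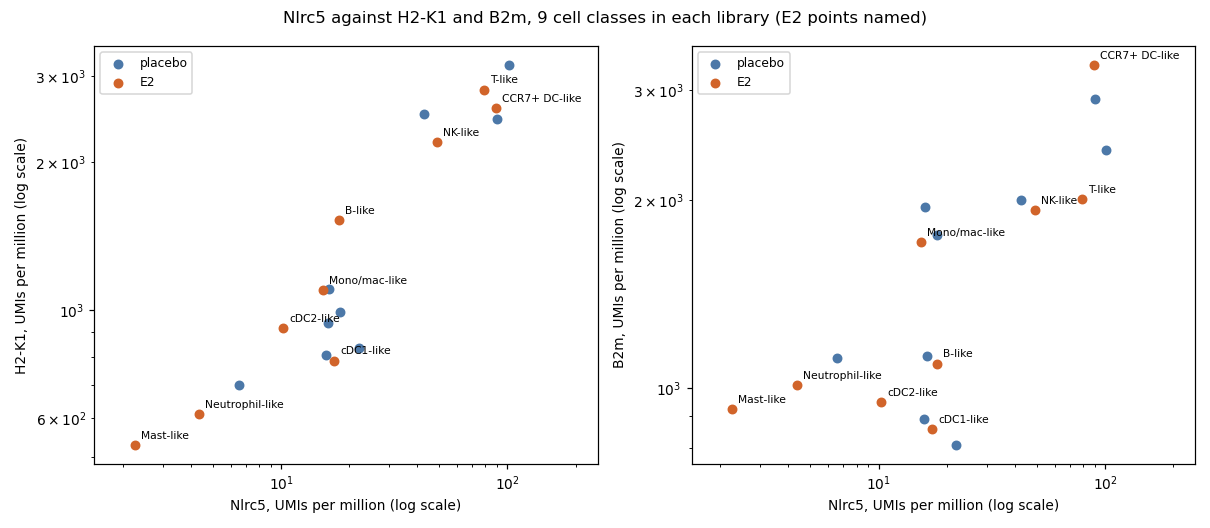
Nlrc5 against H2-K1 (left) and B2m (right), both in CPM on log axes, for 9 classes in placebo (blue) and E2 (orange, named). T-like, CCR7+ DC-like and NK-like cells are at the upper right of both panels, and cDC1-like cells lie low for B2m at a middle level of Nlrc5.

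The comparison of the libraries asks how the pathway in tumour immune cells differed between mice with E2 and mice with placebo. A gene is called different here when its CPM ratio is past 1.5-fold and its UMIs in the 2 libraries sum to 20 or more. In T-like cells none of the 10 genes was past this fold, and 8 were lower in E2. Over all 11678 genes measured there, 4.74% were past the fold higher and 9.62% lower, and 63.1% were lower at all. The median log2 ratio of the 10 genes, with 10 CPM added to both sides, was −0.21, against −0.067 for all genes. Tapbp was 1.39-fold lower (1.28 to 1.51), H2-T23 1.33-fold lower (1.24 to 1.42) and Tap1 1.28-fold lower (1.17 to 1.40). Psmb8 was 1.21-fold higher (1.15 to 1.28) and H2-D1 1.07-fold higher (1.05 to 1.10). So the heavy chains parted: H2-K1 had 3162 and 2819 CPM, H2-D1 2450 and 2630 CPM. Summed markers of other cells in these T-like cells were 791 and 723 CPM for monocytes and macrophages. They were 416 and 720 CPM for cycling cells, with no marker of either list at 0. Markers of cDC1 cells summed to 442 and 313 CPM, with 2 and 1 of 8 at 0. The part of these cells in the result was not tested.

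Regulatory T-like cells, gated by a Foxp3 UMI (408 placebo and 347 E2 cells), held the lowest Nlrc5 ratio of the 4 T cell gates. Nlrc5 had 95.7 and 62.7 CPM there and was past 1.5-fold lower, in a gate where 12.3% of all genes were lower and 5.99% higher. Its interval as E2 over placebo was 0.523 to 0.817. In T-like cluster 0, the cluster led by Foxp3, Nlrc5 had 102 and 72.8 CPM, 1.41-fold lower (1.13 to 1.75), which is within 1.5-fold. In CD8 T-like cells Nlrc5 had 131 and 130 CPM, and in Foxp3-negative CD4 T-like cells 110 and 105 CPM. The difference between these ratios was not tested. Irf1, an interferon-induced transcription factor of class I promoters, was also lower in the Foxp3+ gate, with 330 and 165 CPM. H2-K1 had 3508 and 2879 CPM, B2m 2614 and 2087 CPM and Tap1 252 and 178 CPM. Psmb8 was higher in every gate, with 517 and 628 CPM in Foxp3+ cells and 534 and 714 CPM in CD8 T-like cells. In γδ T-like cells, gated by a Trdc UMI, Tapbp had 308 and 141 CPM and was past the fold lower, where 17.1% of all genes were lower and 9.31% higher. In T-like cluster 13, which Trdc also marks, Tapbp had 152 and 149 CPM and was not past the fold. Trdc also led cluster 26, which had 26 placebo and 18 E2 cells and was too small to compare. The gate and cluster 13 thus need not hold the same cells, and why their Tapbp ratios differ was not tested.

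In monocyte/macrophage-like cells, the class with most summed UMIs, from 927 placebo and 2277 E2 cells, 5 of the 10 genes were higher, 5 were lower and none was past 1.5-fold. The background was 8.95% of 13063 genes higher and 7.73% lower. The median log2 ratio was −0.00013, against −0.029 for all genes. The highest ratio was that of H2-D1, with 1515 and 2018 CPM, 1.33-fold higher (1.31 to 1.36). H2-D1 was higher in each of 6 clusters within the class, with log2 ratios from 0.18 in cluster 20 to 0.55 in cluster 9. H2-K1 was 1.11-fold higher (1.09 to 1.14) over the class, and among the clusters it ranged from 1311 and 1206 CPM in cluster 3 to 873 and 1116 CPM in cluster 1. Tapbp, with 232 and 177 CPM, was 1.30-fold lower (1.24 to 1.38). Psmb8 had 347 and 392 CPM over the class.

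Single clusters of this class did hold genes past the fold. In cluster 2, Tap1 (120 and 74.6 CPM) and Tap2 (78.4 and 51.3 CPM) were lower, where 10.4% of all genes were lower and 6.9% higher. In cluster 3, Tapbp (275 and 169 CPM) was lower, where 16.9% were lower and 10.8% higher. In cluster 5, Nlrc5 was lower on 45 and 23 UMIs, where 12.2% were lower and 6.48% higher. In cluster 9, Psmb8 (228 and 346 CPM) and Nlrc5 (on 11 and 51 UMIs) were higher, where 10.2% were higher and 12.6% lower. The median log2 ratio of the 10 genes in cluster 9 was 0.36, against −0.047 for all genes. In cluster 20, with 30 placebo cells, Nlrc5 was higher on 4 and 19 UMIs. Tap1 and Tap2 were lower there on 26 and 44 and on 23 and 29 UMIs, where 11.9% were higher and 14.9% lower. The counting intervals of Nlrc5 in clusters 9 and 20 and of Tap1 in cluster 20 include no change. Over the class, summed cDC2 markers were 323 and 592 CPM and cycling markers 71.2 and 215 CPM, with none at 0, and their part in these ratios was not tested.

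In neutrophil-like cells (261 and 545 cells), 9 genes had at least 20 UMIs, and 4 of them were past 1.5-fold lower in E2. Over all 5961 genes, 19.9% were past the fold lower and 17.2% higher. B2m had 1947 and 1011 CPM, 1.93-fold lower (1.79 to 2.07), the largest ratio of the 4. Tap2 had 98.2 and 51.6 CPM, 1.90-fold lower (1.36 to 2.65), Tapbp 245 and 156 CPM, 1.57-fold lower (1.28 to 1.92), and H2-K1 1.54-fold lower (1.39 to 1.70). H2-D1 was 1.29-fold higher (1.21 to 1.37), and Tap1 (49.9 and 48.4 CPM) and Psmb9 (82.1 and 82.6 CPM) had intervals that include no change. The light chain and the heavy chains thus did not differ in 1 direction in this class, and the median log2 ratio was −0.037, near the −0.036 of all genes. The clusters of the class parted around it, with medians of −0.35 in cluster 6 and 0.31 in cluster 8, against 0.022 and 0.018 for all genes. In cluster 6, 2 genes were higher and 7 lower, where 51.8% of all genes were higher and 48.2% lower. In cluster 8, 5 were higher and 4 lower (51.2% and 48.8% of all genes), so its median does not stand for all 9 genes. There Psmb8 and Psmb9 rested on 11 and 16 placebo UMIs.

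Both neutrophil-like clusters had lower B2m, with 2216 and 1065 CPM in cluster 6 and 1592 and 942 CPM in cluster 8. H2-D1 was higher in both, with 2176 and 2535 CPM and with 2174 and 3061 CPM. After thinning, 94.0% of placebo and 80.4% of E2 neutrophil-like cells had a B2m UMI, against 95.4% and 88.6% unthinned. The median thinned cell had 3 B2m UMIs in placebo and 2 in E2. Neutrophil-like cells were shallow, with medians of 2372 and 3100 UMIs. Monocyte and macrophage markers summed to 1266 and 1864 CPM in them, with 2 and 0 of 12 markers at 0, and T-like markers to 32.2 and 14.7 CPM, with 2 and 1 of 10 at 0; their part in the result was not tested. H2-K1 was within 1.5-fold when cells were thinned (log2 −0.39), with doublets kept (−0.41), with gates set after thinning (−0.51), with the same cluster mix (−0.53) and with median-of-ratios scaling (−0.58), and Tapbp with thinned cells (−0.49), gates set after thinning (−0.52) and the same cluster mix (−0.54). B2m and Tap2 were past the fold in all 13 alternatives.

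**Figure D4:**
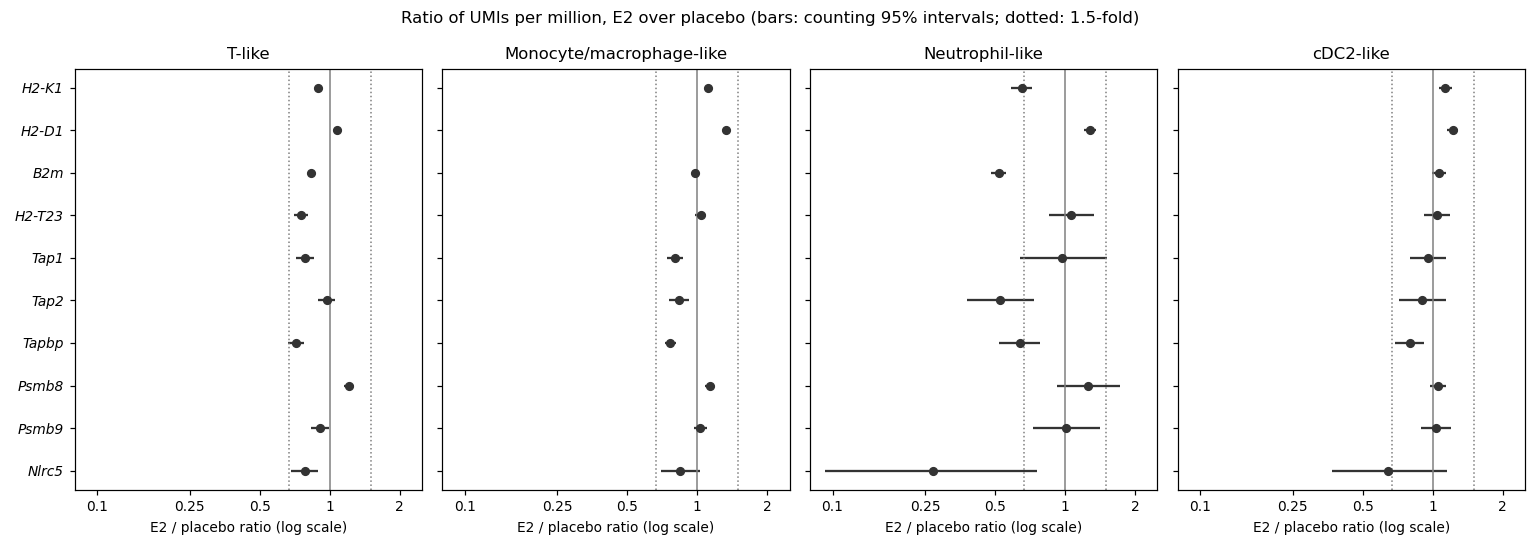
Ratio of CPM, E2 over placebo (log axis), of the 10 genes in T-like, monocyte/macrophage-like, neutrophil-like and cDC2-like cells, with counting 95% intervals and dotted lines at 1.5-fold. The neutrophil-like panel has B2m, Tap2, Tapbp and H2-K1 to the left of the lower line, while its H2-D1 is 1.29-fold higher, and the Nlrc5 point there rests on 10 and 8 UMIs.

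Among dendritic cells 1 of the 10 genes was called, in 1 class. In cDC2-like cells Nlrc5 was past 1.5-fold lower, on 23 and 34 UMIs, with an interval from 0.871-fold to 2.71-fold that includes no change, and the call was lost in 4 of 13 alternatives. Of 9514 genes there, 13.2% were past the fold lower and 6.54% higher, and the median log2 ratio of the 10 genes was 0.054, against −0.081 for all genes. In cDC1-like cells no gene was past the fold, where 10.6% of all genes were higher and 14.6% lower. Tapbp was 1.44-fold lower there (1.25 to 1.64), Tap1 1.37-fold lower (1.21 to 1.55) and Psmb8 1.13-fold higher (1.06 to 1.21). In CCR7+ DC-like cells no gene was past the fold either (7.42% higher and 14% lower over all genes). H2-D1 was 1.35-fold higher there (1.28 to 1.41) and Tap2 1.49-fold lower (1.23 to 1.80). With means over cells, Tapbp in cDC1-like and Tap2 in CCR7+ DC-like cells came past the fold lower, and with thinned cells Tapbp and Tap2 in cDC1-like and Tap1 in CCR7+ DC-like cells did.

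Smaller classes held single calls. In B-like cells (174 and 56 cells) Psmb8 had 269 and 416 CPM and was 1.55-fold higher (1.19 to 1.99), where 9.81% of all genes were past the fold higher and 30.4% lower. The median log2 ratio of all genes in that class was −0.19, with 36.0% of them higher and 64.0% lower. Scaling by the median ratio also put H2-K1, H2-D1, H2-T23 and Tap1 past the fold higher. The call of Psmb8 in B-like cells was lost in 6 of 13 alternatives, among them named clusters and thinned cells. In NK-like cells (52 and 102 cells) Psmb9 had 146 and 220 CPM, 1.51-fold higher (1.09 to 2.11), beside a background of 13.8% higher and 17.8% lower. With named clusters in place of gates this call was lost and Tapbp was past the fold lower, as it was without cells near the gate limits. Tap1 was past it lower with gates set after thinning, and H2-T23 and Psmb8 higher with thinned cells. In mast-like cells (61 and 227 cells) Psmb8 was 1.53-fold higher (1.08 to 2.23), Tap2 1.66-fold higher (1.08 to 2.64) and Tapbp 1.56-fold lower (1.11 to 2.15), where 14.2% of all genes were past the fold higher and 14% lower. These 3 mast-like calls rest on 25 to 54 placebo UMIs each. Psmb8 was within the fold without cells near the gate limits, Tapbp with means over cells, and Tap2 with means over cells and with thinned cells. Of the other genes in mast-like cells, Tap1 came past the fold lower in 4 alternatives, H2-K1 in 2, and Nlrc5, on 7 UMIs, with no filter on low counts.

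Read gene by gene across the 9 classes, Psmb8 was higher in E2 in 9 of 9 classes, with a median log2 ratio of 0.27. Tapbp was lower in 9 of 9, with a median of −0.46. Of 3910 genes measured in all 9 classes, 3.09% were higher in all and 8.95% lower in all. Tap1 was lower in 8 classes and H2-T23 higher in 8, where 24.7% of genes were lower and 8.59% higher in at least 8 of the 9 classes. H2-D1 was higher in 7 classes, B2m and Tap2 lower in 6, and H2-K1 higher in 4 and lower in 5. Nlrc5 was measured in 6 classes and was lower in 5. For these smaller counts of classes the share over all genes was not counted. The sign of Psmb8 held in 9 classes under all 13 alternatives. H2-T23 was higher in 5 of 9 classes with thinned cells and in 7 without cells near the gate limits. Nlrc5 was lower in 3 of 6 classes with means over cells and with the same cluster mix. Tap1 was lower in 7 of 9 under median-of-ratios scaling, named clusters and gates set after thinning, and B2m in 4 of 9 under median-of-ratios scaling. Tapbp was lower in 8 classes in place of 9 under median-of-ratios scaling, a total without ribosomal protein genes, named clusters and thinned cells. The signs are not independent between classes, since all classes of a group come from 1 library.

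**Figure D5:**
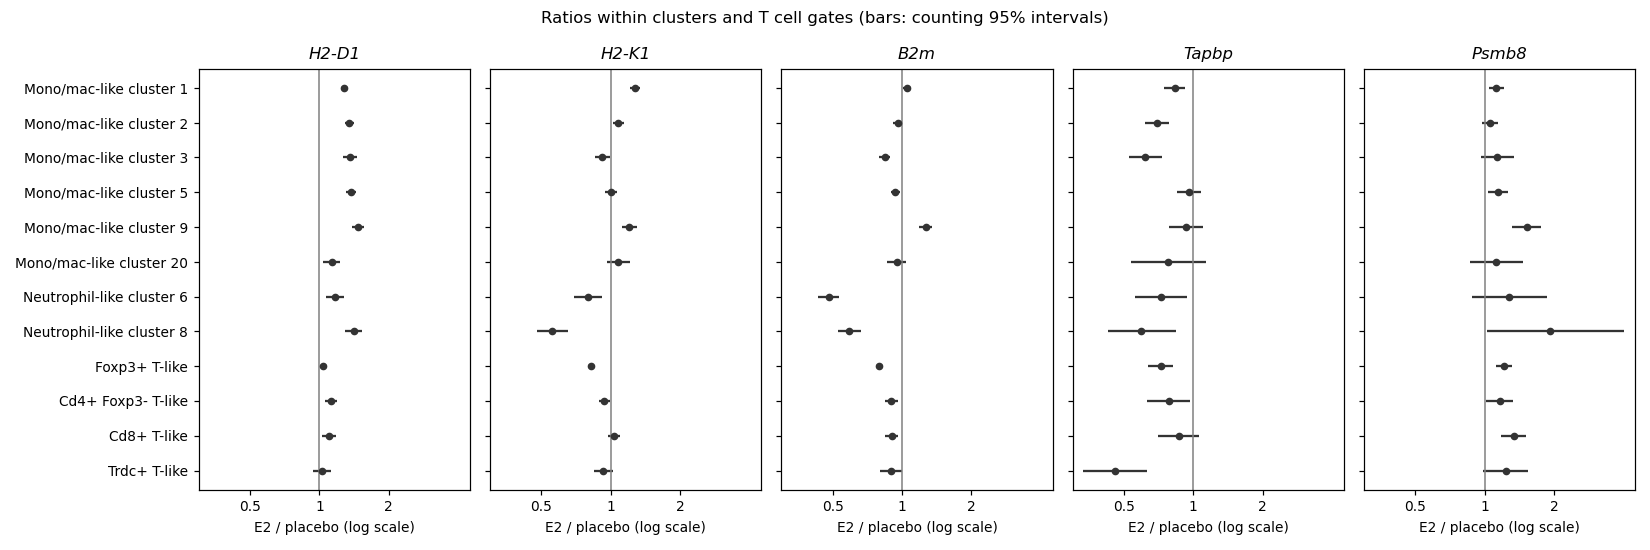
Ratio of CPM, E2 over placebo (log axis), of H2-D1, H2-K1, B2m, Tapbp and Psmb8 within 6 monocyte/macrophage-like clusters, 2 neutrophil-like clusters and 4 T cell gates, with counting 95% intervals. H2-D1 points lie to the right of 1 in every row, and B2m is lowest in the 2 neutrophil-like rows.

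A list of 44 other genes of class I presentation gives the surroundings. In T-like cells 0 of 44 were past 1.5-fold higher and 5 lower, where 4.74% of all genes were higher and 9.62% lower. Irf1 had 249 and 159 CPM, Irf8 39.1 and 25.4 CPM, and Cybb, a subunit of the phagocyte oxidase, 15.9 and 8.11 CPM. The median log2 ratio of the 44 was −0.11. In monocyte/macrophage-like cells 3 of 44 were past the fold higher and 2 lower, where 8.95% of all genes were higher and 7.73% lower. Each of the 10 other heavy chains had a higher value in E2, as did 42.4% of all genes, and 3 of the 10 were past the fold. H2-Q7 had 31.1 and 52.1 CPM, and Irf1 122 and 81.1 CPM. H2-Q6 and H2-Q7 are near-identical copies, so reads may be split between them.

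In neutrophil-like cells 35 of the 44 were measured, with 2 past the fold higher and 10 lower, where 17.2% of all genes were higher and 19.9% lower. Hspa5, the chaperone BiP of the endoplasmic reticulum, had 1015 and 433 CPM. Nfkb1, a subunit of NF-κB, had 257 and 129 CPM. H2-Q7 had 46.7 and 14.1 CPM, opposite in direction to monocyte/macrophage-like cells, a difference that was not tested. In cDC2-like cells 41 were measured, 3 higher and 4 lower (6.54% and 13.2% of all genes), with Irf8, a factor of cDC1 development, at 89.0 and 34.3 CPM and Ifngr1, an interferon gamma receptor chain, at 169 and 267 CPM. In that class cDC1 markers summed to 361 and 254 CPM, with 2 and 1 of 8 at 0, monocyte and macrophage markers to 1121 and 1683 CPM and cycling markers to 432 and 552 CPM, none at 0, and their part in these values was not tested. In B-like cells 38 were measured, 6 higher and 8 lower (9.81% and 30.4% of all genes), with Irf1 at 177 and 76.9 CPM on 130 and 17 UMIs. In cDC1-like cells 39 were measured, 1 higher and 6 lower (10.6% and 14.6% of all genes), and Irf1 had 61.0 and 21.6 CPM. Irf1 was lower in 7 of 9 classes. The share of all genes lower in that many was not counted, but 24.7% of 3910 genes were lower in at least 8.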

How the data were processed

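The deposited values are raw counts (UMIs per gene and barcode), made by the authors with Cell Ranger 3.1.0 on mm10, per the submitters' processing notes, with no normalization. Barcodes under 200 genes were removed, 15 in placebo and 26 in E2. Scrublet's automatic threshold marked 0.0860% and 1.49% of barcodes, so the highest scores were removed instead at 0.8% per 1000 barcodes, 97 and 266. The 37 mitochondrial features held 0 UMIs.

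A cell took the class of the marker list with the largest share of markers seen, with at least 3 markers and a lead of 10 percentage points, over 19 lists; 1 marker was not found. Leiden clusters (28, resolution 1, leidenalg 0.10.2, scanpy 1.11.5) were made without the 10 genes. UMIs were summed per class and library. Ratios carry exact conditional-binomial, levels exact Poisson and shares exact Clopper-Pearson 95% intervals, which cover counting error only; the intervals of ratios were checked on simulated data. Medians and single log2 ratios use log2 of CPM plus 10, which understates ratios of low genes, while calls use the plain CPM ratio. Clusters and T cell gates needed 30 cells in each library.

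The genes, the lists and the tests were chosen with earlier results of these data known. Named genes of the pathway list were past 1.5-fold with at least 50 UMIs, at most 5 per class by log2 ratio, plus Irf1, Psmb5, Psmb6, Psmb7 and Psmb10; 1 gene under this rule is not reported here. Genes of like pattern had the highest r and at least 50 CPM in a point. The 13 alternatives include 2 chosen after seeing the data (without shared barcodes, without cells near gate limits). Gene positions come from GENCODE M21 (47310 of 47730 features matched), sequences from RefSeq on GRCm38.p6. Python 3.11.15, numpy 2.4.6, scipy 1.17.1, pandas 2.3.3, igraph 0.11.9 and matplotlib 3.10.9 were used.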

Additional observations from a re-analysis of the deposited data

Results flagged for a closer look

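Tap2 had ratios of opposite sign in 2 classes under the same contrast. In mast-like cells it had 54.5 CPM in placebo and 90.3 CPM in E2, on 25 and 160 UMIs. With 10 CPM added to both sides the log2 ratio was 0.64. In neutrophil-like cells it had 98.2 and 51.6 CPM, on 61 and 95 UMIs, a log2 ratio of −0.81 by the same measure. Each interval excludes no change by counting error. The difference between the classes was not tested, since each group is 1 library.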

How the results depend on the processing

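The median log2 ratio of the 10 genes in T-like cells, −0.21 in the main analysis, was −0.26 with no doublet removal, −0.17 with a total without ribosomal protein genes, −0.14 with median-of-ratios scaling and −0.13 with clusters weighted alike; it was lower in E2 under every alternative, and the cause of these moves was not tested. The medians in monocyte/macrophage-like, neutrophil-like and cDC2-like cells moved by less than the counting interval of the genes at the median under all 13 alternatives, the neutrophil-like one reaching −0.32 with no filter on low counts, where Nlrc5 enters on 18 UMIs. Of 506 values of 39 gene ratios under alternatives, 462 kept within the counting interval and 44 moved. In 11 ratios, 19 values changed sign, none with a main log2 ratio over 0.31 in size, and most often in Psmb9 and under thinning. Scaling mattered most in B-like cells, where the median of all genes was −0.19, or −0.083 with a total without ribosomal protein genes. Thinning to 1000 UMIs in place of 2000 lowered the share of T-like cells with an Nlrc5 UMI to 9.61% in placebo and 7.23% in E2. No paired analysis was possible because each group is 1 library. Depth limits Nlrc5 most, which had under 50 UMIs per library in neutrophil-like, mast-like, B-like, NK-like and cDC2-like cells.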

Other observations

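Of the named classes, 4 had at least 50 cells in 1 library only and entered no comparison. Plasmacytoid DC-like cells (86 cells in E2), the specialised makers of type I interferon, had H2-T23 at 670 CPM (616 to 728), above every class in the report, with H2-K1 at 1628 CPM and Psmb8 at 751 CPM. Basophil-like cells (97 cells in placebo) had H2-K1 at 1246 CPM and H2-T23 at 399 CPM but B2m at 499 CPM (433 to 574), below all 9 compared classes. ILC2-like cells (61 cells in placebo), innate sources of interleukin 5 and interleukin 13, had H2-K1 at 2831 CPM, B2m at 2337 CPM and Nlrc5 at 65.3 CPM, within the range of T-like and NK-like cells. Fibroblast-like cells (56 cells in E2) had H2-K1 at 222 CPM, H2-D1 at 260 CPM, B2m at 569 CPM and Tap1 at 13.1 CPM on 9 UMIs.

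An unnamed, shallow cluster of 145 placebo and 55 E2 cells, led by Tm4sf1 and Wfdc2 and with a median of 568 UMIs, had H2-K1 at 471 CPM in placebo on 86 UMIs and 1502 CPM in E2 on 93 UMIs. Its B2m had 378 and 969 CPM. The E2 over placebo ratios were 3.19 (2.35 to 4.32) for H2-K1 and 2.56 (1.78 to 3.68) for B2m. Over 2024 genes there, 35.6% were higher in E2 and 64.4% lower. The cluster summed to 182529 UMIs in placebo and 61929 in E2. Deep barcodes weigh more in such sums, so these CPM need not describe the typical cell.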
